A study of Mus musculus with 9 samples.

Results

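Collagens, laminins and the other proteins of the basement membrane were followed through 3 media in adult mouse neural stem cells (NSCs). The genes were taken by symbol: every collagen chain (Col, a number, a and a number), every laminin chain (Lama, Lamb or Lamc and a number), and Nid1, Nid2, Hspg2, Agrn, Sparc, Fn1, Fbln1 and Fbln2. This gave 63 of the 55704 genes of the table, of which 44 encode collagen chains, 11 laminin chains and 8 the other proteins. The NSCs came from the subventricular zone (SVZ) of wild-type C57BL/6 mice aged 8 to 9 weeks, with 2 female and 2 male mice pooled for an isolation, and had been passaged at least 3 times in bFGF and EGF. In the bFGF/EGF group the cells had been plated for 16 to 18 h with 20 ng/mL of both factors and were collected at day 0. In the bFGF/BMP4 group EGF was replaced by 20 ng/mL BMP4 while 20 ng/mL bFGF was kept, and in the BMP4 group both mitogens were replaced by 20 ng/mL BMP4, and these cells were collected at day 6. All groups were adherent on poly-L-ornithine and laminin, and each had 3 libraries that the series calls biological replicates, without saying whether these came from separate isolations. The p-values therefore set group differences against the spread between these libraries, which may not cover that between isolations. No group had 6 days in bFGF/EGF, so the effect of medium and of time in adherent culture cannot be told apart in the comparisons with bFGF/EGF, and both of these comparisons share the same bFGF/EGF libraries.

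A basement membrane is a thin sheet of extracellular matrix on which many cells rest. Laminins are trimers of an alpha, a beta and a gamma chain that polymerise next to integrins and dystroglycan at the cell surface, type IV collagen forms a second network, and the nidogens, perlecan (Hspg2) and agrin (Agrn) join or decorate the networks. In the SVZ, stem cells contact the basement membrane of blood vessels and the laminin-rich extensions of the extravascular matrix called fractones, and integrins of the stem cells bind these laminins. Fibrillar collagens, fibulins (Fbln1, Fbln2), fibronectin (Fn1) and SPARC, a matricellular protein that binds collagen, belong to the matrix around such sheets.

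The libraries held 15892854 to 17419822 fragments on genes, recovered from the deposited FPKM values (fragments scaled by transcript length and library size). Log2 values correlated at 0.950 to 0.964 between libraries of a group and at 0.810 to 0.915 between groups. The FPKM values of all genes summed to 326302 in BMP4 replicate 2, beside 278175 and 278433 in the other BMP4 libraries. The NSC markers Sox2 (167, 137 and 137 FPKM in bFGF/EGF, bFGF/BMP4 and BMP4, group means) and Slc1a3 (73.6, 130.4 and 113 FPKM) were present throughout, and both were chosen after their values were seen. Of the 7 genes of that NSC marker list, 1 rose and 4 fell in bFGF/BMP4 and 2 rose and 1 fell in BMP4, for medians of -1.27 and 0.39 on the log2 scale, and 3 were higher and 0 lower in BMP4 than in bFGF/BMP4 (median 0.81). Their summed level was 1674 to 1770.5 FPKM in bFGF/EGF, 659 to 763 with bFGF/BMP4 and 1415 to 1879 in BMP4. Nes, which encodes the intermediate filament nestin, fell from a mean of 151 FPKM to 3.55 and 15.8 FPKM (adjusted p = 8.6e-08 and 1.2e-06), and Pax6, a transcription factor of neural progenitors, rose from 1.53 FPKM to 4.80 and 7.16 FPKM (adjusted p = 1.4e-05 and 1.4e-06). Markers of other cells that make basement membrane were low. The summed level of 10 endothelial genes was 0.766 to 1.22 FPKM in bFGF/EGF, 1.66 to 2.31 with bFGF/BMP4 and 3.37 to 4.43 in BMP4, with Kdr at 3.31 FPKM in the last group, while Cldn5 was at 0 in all libraries. The sum of 10 fibroblast and leptomeningeal genes was 1.24 to 1.79, 1.63 to 2.02 and 1.43 to 1.92 FPKM, with Tbx18 at 0 in all libraries. The sum of 8 mural genes was 3.25 to 4.26, 16.8 to 21.3 and 14.3 to 20.8 FPKM, of which Notch3, which NSCs also express, made up 3.52, 18.7 and 16.7 FPKM, and the other 7 genes had means under 1 FPKM in every group. The 7 microglia genes summed to at most 1.75 FPKM. Lists of the neural lineage moved with the media: 7 oligodendrocyte lineage genes, mostly Olig1 and with Sox10 at 0 in both media with BMP4, summed to 1549 to 2249 FPKM in bFGF/EGF, 1316 to 1798 with bFGF/BMP4 and 238 to 440.1 in BMP4, and 6 neuron genes summed to 75.7 to 91.8, 47.6 to 53.3 and 142 to 213 FPKM. Olig2 fell from a mean of 565 FPKM to 246 and 31.7 FPKM. Of the 6 tested genes of the oligodendrocyte list, 1 rose and 3 fell in bFGF/BMP4 (median log2 fold change -0.97). In BMP4, 1 rose and 4 fell (median -2.13), and 1 was higher and 2 were lower in BMP4 than in bFGF/BMP4 (median -0.26). Over all genes tested, 30.6%, 36.6% and 13.5% were called in these comparisons. Tubb3, a neuronal tubulin, was at 20.3, 16.96 and 145 FPKM and rose in BMP4, and Syt1, a synaptic vesicle gene, fell from 3.83 FPKM to 0.137 and 0.371 FPKM. In these bulk libraries fewer cells of a type and less RNA per cell cannot be told apart, and the part of these markers in the results was not tested.

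Of the 63 genes, 47 had a mean of at least 0.1 FPKM and were tested together with all other genes (20207 in all). A gene is called higher or lower where the adjusted p was 0.05 or less and the change 2-fold or more on the log2(FPKM + 0.1) scale, which understates the change of low genes, and "rose" and "fell" are used for such calls. The other 16 genes (Col1a2, Col2a1, Col3a1, Col4a3, Col6a2, Col6a3, Col6a4, Col6a5, Col6a6, Col8a1, Col10a1, Col13a1, Col15a1, Col17a1, Col24a1 and Lamc3) did not exceed 0.170 FPKM in any library. Among them are Col1a2 and Col3a1, chains of the main fibrillar collagens of connective tissue. Between bFGF/BMP4 and bFGF/EGF, 14 of the 47 genes rose and 14 fell. Across all genes tested, 30.6% were called in this comparison, 16.5% higher and 14.1% lower. Between BMP4 and bFGF/EGF, 20 rose and 13 fell, beside 36.6% of all genes (21.3% higher and 15.4% lower). Between BMP4 and bFGF/BMP4, 15 were higher in BMP4 and 1 was lower, beside 13.5% of all genes (8.41% higher and 5.14% lower). The median log2 fold change of the 47 genes was 0.10, 0.57 and 0.69 in these comparisons, and that of all genes tested was 0.06, 0.10 and 0.00. The libraries of the groups compared did not overlap for 37 of the 47 genes between bFGF/BMP4 and bFGF/EGF (57.7% of all genes tested), for 39 between BMP4 and bFGF/EGF (60.4%) and for 35 between BMP4 and bFGF/BMP4 (38.7%). In all, 37 of the 47 genes were called in at least 1 comparison and 10 in none, beside 44.7% of all genes called in at least 1.

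**Figure D1:**
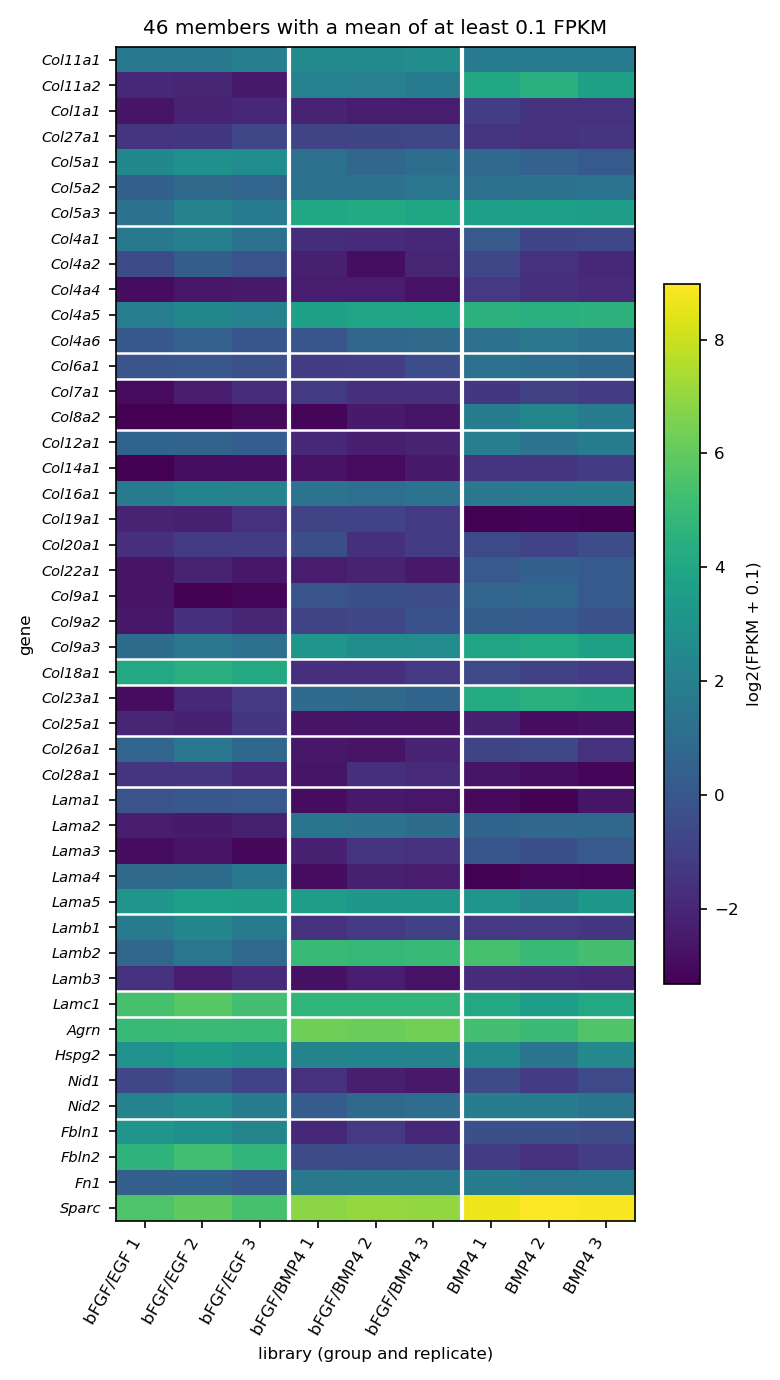
Colour shows log2(FPKM + 0.1) of 46 of the 47 genes with a mean of at least 0.1 FPKM (rows, grouped by kind of protein and divided by white lines) in the 9 libraries (columns). Sparc was the highest gene in every library, and Col18a1, Fbln2, Lama4 and Lamb1 were high in bFGF/EGF where Lamb2, Lama2, Col5a3, Col11a2 and Col23a1 were lower than in the media with BMP4.

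Among the laminin beta chains, Lamb2 rose and Lamb1 fell in both media with BMP4. Lamb1 encodes the beta chain of the classical laminins of early basement membranes, and Lamb2 that of synaptic, glomerular and vascular ones. Lamb2 read 1.56, 2.79 and 1.72 FPKM in bFGF/EGF, 32.6, 29.6 and 30.9 FPKM in bFGF/BMP4 and 42.1, 31.2 and 40.9 FPKM in BMP4, so that every library with BMP4 lay far above every bFGF/EGF library. The means differed 15.4-fold in bFGF/BMP4 (log2 fold change 3.92 ± 0.20, SE, adjusted p = 4.4e-07) and 18.8-fold in BMP4 (4.20 ± 0.20, adjusted p = 2.1e-07), and the log2 difference of 0.28 ± 0.20 between the BMP4-containing media did not pass the test (adjusted p = 0.39). Lamb1 read 3.16, 4.94 and 3.35 FPKM in bFGF/EGF, 0.238, 0.329 and 0.439 FPKM in bFGF/BMP4 and 0.317, 0.318 and 0.287 FPKM in BMP4. It fell 11.4-fold in bFGF/BMP4 (log2 -3.17 ± 0.27, adjusted p = 9.2e-06) and 12.4-fold in BMP4 (log2 -3.24 ± 0.27, adjusted p = 5.1e-06), with no overlap between the groups. Of the summed beta chain FPKM, Lamb1 made up 63.6 ± 0.371% in bFGF/EGF (SD, n = 3), 1.07 ± 0.337% with bFGF/BMP4 and 0.814 ± 0.165% in BMP4, and Lamb2 made up 33.3 ± 2.16%, 98.7 ± 0.361% and 98.7 ± 0.262%. The summed level of the 3 beta chains went from 6.01 ± 1.57 FPKM to 31.4 ± 1.41 and 38.5 ± 5.98 FPKM, values given as a description. Lamb3, the chain of the epithelial laminin that anchors skin, stayed between 0.0471 and 0.240 FPKM and was called in no comparison. Lamb1 (chr12:31315030-31379658 on the GRCm39 build, plus strand) shares 336 bases with Dld on the other strand, which was at 39.1, 65.7 and 75.0 FPKM, and Lamb3 shares 6615 bases with G0s2 (18.3, 9.45 and 34.0 FPKM). Whether fragments were counted by strand is not given in the sources used here, so reads of such overlaps cannot be assigned to a strand.

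**Figure D2:**
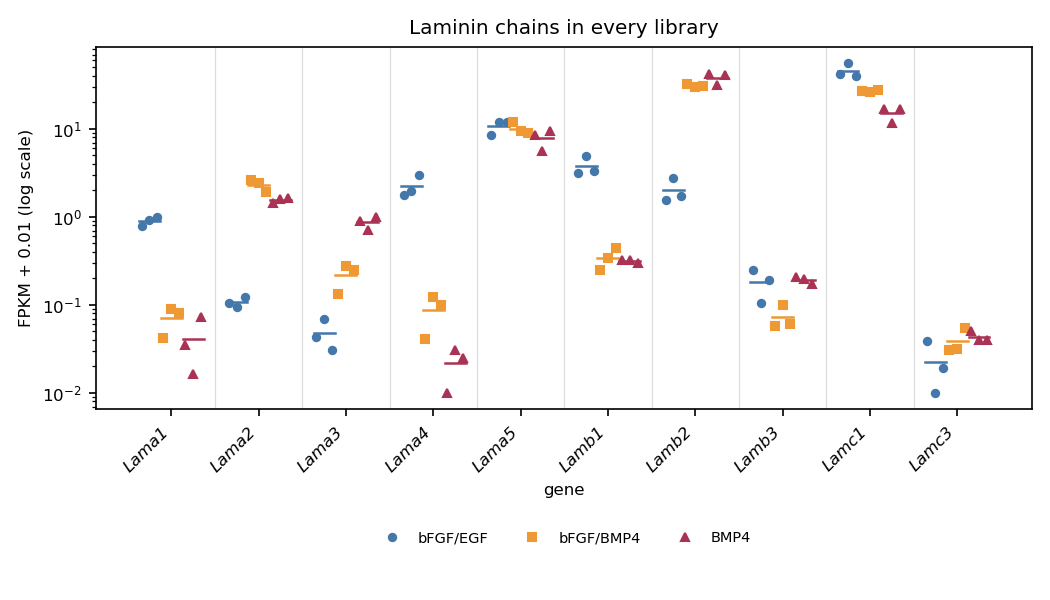
FPKM + 0.01 on a log axis for 10 laminin chains, with 1 point for each library and a short line at the group mean. Lamb1, Lama1 and Lama4 sit at the top in bFGF/EGF (circles), Lamb2, Lama2 and Lama3 in the media with BMP4 (squares and triangles), and Lama5 overlaps in all groups.

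Among the alpha chains, which carry the main cell-binding domains, 2 of 5 rose and 2 fell in each medium with BMP4. Of all genes tested, 16.5% rose and 14.1% fell in bFGF/BMP4, and 21.3% rose and 15.4% fell in BMP4. Lama5, the commonest alpha chain of adult basement membranes, was the highest in all groups, with 8.47, 12.1 and 12.02 FPKM in bFGF/EGF, 11.8, 9.38 and 8.89 with bFGF/BMP4 and 8.41, 5.65 and 9.46 in BMP4. Its groups overlapped, it shares 85 bases with Adrm1 on the other strand (32.6, 20.1 and 19.4 FPKM), and it was called in no comparison (log2 fold changes of -0.11 ± 0.22, -0.48 ± 0.22 and -0.37 ± 0.22 for bFGF/BMP4 and BMP4 against bFGF/EGF and BMP4 against bFGF/BMP4). Lama2, the chain of muscle and glial basement membranes whose loss causes a muscular dystrophy, rose. Lama2 read 0.0956, 0.0838 and 0.112 FPKM in bFGF/EGF, 2.63, 2.40 and 1.93 FPKM in bFGF/BMP4 and 1.44, 1.60 and 1.64 FPKM in BMP4. The bFGF/EGF libraries were all lowest, and the log2 fold changes were 3.61 ± 0.22 (adjusted p = 9.9e-07) and 3.07 ± 0.22 (adjusted p = 2e-06). Lama4, an alpha chain typical of vessel walls, took the opposite course: it read 1.78, 1.95 and 3.00 FPKM in bFGF/EGF, 0.0309, 0.113 and 0.0901 FPKM in bFGF/BMP4 and 0, 0.0205 and 0.0151 FPKM in BMP4. All bFGF/EGF libraries were higher than any other, and the fragments over the 3 libraries numbered 1376, 43 and 7. The log2 fold changes of Lama4 were -3.71 ± 0.34 (adjusted p = 1.6e-05) and -4.36 ± 0.34 (adjusted p = 3.8e-06). Its gene span, introns included, overlaps that of Fam229b on the other strand by 3608 bases. Fam229b went the other way (0.995, 1.76 and 3.66 FPKM).

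Lama1, the alpha chain of the embryonic laminin, fell from 0.778, 0.921 and 0.982 FPKM in bFGF/EGF to 0.0321, 0.0808 and 0.0702 FPKM in bFGF/BMP4 (log2 fold change -2.63 ± 0.34, adjusted p = 0.00013) and 0.0254, 0.00638 and 0.0626 FPKM in BMP4 (-2.93 ± 0.34, adjusted p = 4.8e-05). Lama3, the epithelial chain, was the only laminin gene called in all 3 comparisons. It held 0.0328, 0.0588 and 0.0211 FPKM in bFGF/EGF, 0.122, 0.267 and 0.240 FPKM in bFGF/BMP4 and 0.888, 0.695 and 0.987 FPKM in BMP4, so that the groups formed 3 steps with no overlap. Its log2 fold changes were 1.15 ± 0.33 (adjusted p = 0.017), 2.80 ± 0.33 (adjusted p = 6.2e-05) and 1.65 ± 0.33 (adjusted p = 0.0056), and the first of these missed the threshold without replicate 2 of bFGF/BMP4. In shares of the summed alpha chain FPKM, Lama4 went from 15.8 ± 2.84% to 0.647 ± 0.382% and 0.127 ± 0.128%, Lama2 from 0.703 ± 0.151% to 18.3 ± 1.24% and 15.6 ± 3.81%, and Lama5 was at 76.8 ± 2.88%, 78.9 ± 2.11% and 75.6 ± 4.06%. The summed level of the 5 chains was 14.1 ± 2.63, 12.7 ± 1.75 and 10.3 ± 2.13 FPKM.

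Lamc1, the gamma chain of nearly all laminins, was the most abundant laminin gene in bFGF/EGF. Lamc1 read 42.1, 55.4 and 40.0 FPKM in bFGF/EGF, 26.7, 26.2 and 27.6 FPKM in bFGF/BMP4 and 16.8, 11.7 and 16.9 FPKM in BMP4, which placed the groups in 3 separate ranges. It fell 3.02-fold in BMP4 (log2 -1.59 ± 0.17, adjusted p = 2.8e-05), whereas the differences of -0.75 ± 0.17 between bFGF/BMP4 and bFGF/EGF (adjusted p = 0.0043) and -0.84 ± 0.17 between BMP4 and bFGF/BMP4 (adjusted p = 0.0055) passed the p threshold but were under 2-fold. Lamc3 had 4, 8 and 10 fragments in the 3 groups and was not tested.

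**Figure D3:**
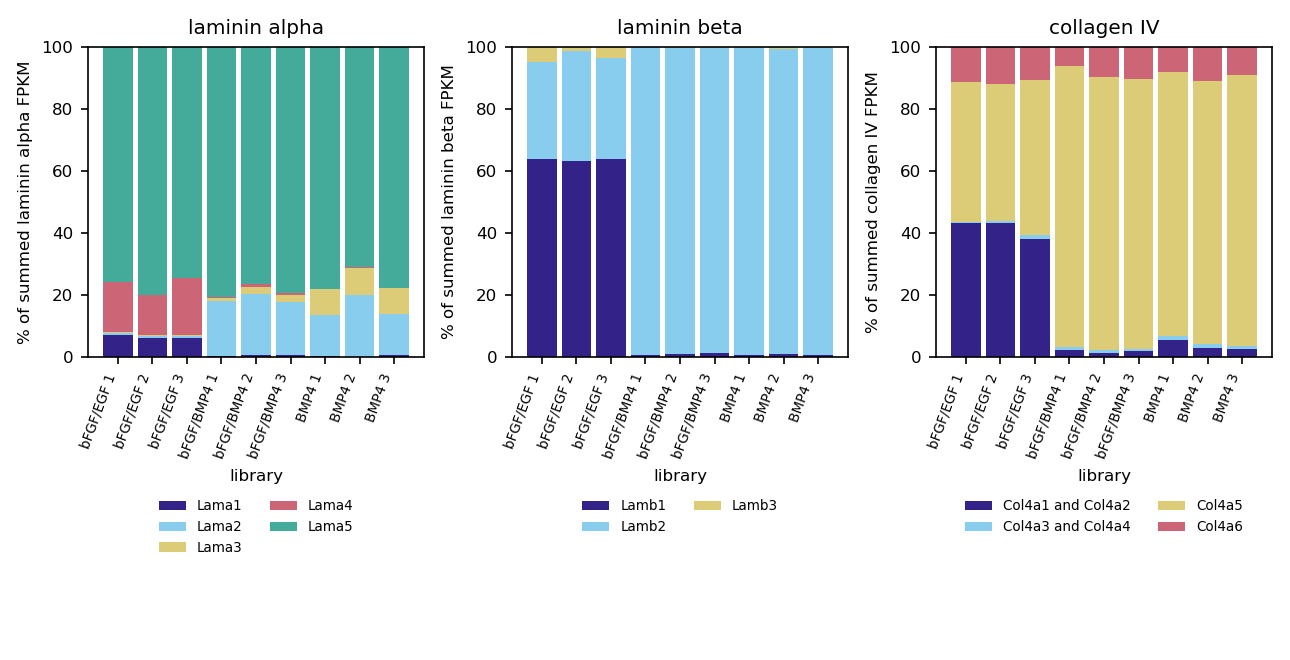
Stacked bars give the share (%) of the summed FPKM taken by each chain in the 9 libraries, for the laminin alpha chains (left), the laminin beta chains (middle) and type IV collagen (right). Lamb1 takes 63.1 to 63.8% of the beta chain FPKM in the bFGF/EGF libraries and at most 1.40% in all others, and Col4a5 takes at least 84.9% of the collagen IV FPKM in every library with BMP4.

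In type IV collagen, Col4a1 and Col4a2 fell and Col4a5 rose in both media with BMP4. The 6 chains are encoded as 3 gene pairs that start next to each other on opposite strands: Col4a1 and Col4a2 on chromosome 8 form the ubiquitous network, Col4a3 and Col4a4 on chromosome 1 and Col4a5 and Col4a6 on the X chromosome form those of kidney, muscle, lung and other special sites. Col4a1 read 3.01, 3.72 and 2.31 FPKM in bFGF/EGF, 0.208, 0.183 and 0.164 FPKM in bFGF/BMP4 and 0.974, 0.505 and 0.520 FPKM in BMP4. Every bFGF/EGF library was above all others, and the BMP4 libraries were above those of bFGF/BMP4. Col4a1 fell in both media (log2 -3.43 ± 0.29, adjusted p = 1e-05, and -2.05 ± 0.29, adjusted p = 0.00021) and was higher in BMP4 than in bFGF/BMP4 (1.37 ± 0.29, adjusted p = 0.0076). Col4a2 read 0.595, 1.13 and 0.829 FPKM in bFGF/EGF, 0.113, 0.0394 and 0.144 FPKM in bFGF/BMP4 and 0.512, 0.233 and 0.156 FPKM in BMP4. Its fall was called in bFGF/BMP4 (log2 -2.26 ± 0.42, adjusted p = 0.0013) and in BMP4 (-1.31 ± 0.42, adjusted p = 0.022), the latter on 97 fragments and lost without replicate 2 or 3 of bFGF/EGF or of BMP4. The 5′ ends of the main transcripts overlap by 318 bases on opposite strands, and fragments there cannot be assigned to a gene without strand.

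Col4a5 read 3.76, 4.99 and 4.10 FPKM in bFGF/EGF, 13.2, 14.3 and 15.3 FPKM in bFGF/BMP4 and 23.8, 21.8 and 23.9 FPKM in BMP4, in 3 ranges without overlap. The means were 3.32-fold higher in bFGF/BMP4 (log2 1.72 ± 0.13, adjusted p = 4.2e-06) and 5.40-fold higher in BMP4 (2.41 ± 0.13, adjusted p = 3.4e-07), and the difference between these media was 0.70 ± 0.13 (adjusted p = 0.0032, under 2-fold). Its neighbour Col4a6 read 0.937, 1.35 and 0.880 FPKM in bFGF/EGF, 0.874, 1.55 and 1.80 FPKM in bFGF/BMP4 and 2.22, 2.82 and 2.42 FPKM in BMP4. Col4a6 rose in BMP4 against bFGF/EGF (log2 1.18 ± 0.28, adjusted p = 0.0047), where all BMP4 libraries were higher, and its bFGF/BMP4 libraries overlapped those of bFGF/EGF (0.35 ± 0.28, adjusted p = 0.33). Col4a4 was lower still, at 0.0333, 0.0655 and 0.0853 FPKM in bFGF/EGF, 0.0997, 0.0983 and 0.0512 FPKM in bFGF/BMP4 and 0.313, 0.221 and 0.183 FPKM in BMP4. Its call in BMP4 against bFGF/EGF (log2 1.07 ± 0.36, adjusted p = 0.03) was lost without replicate 1 of bFGF/EGF or of BMP4. Col4a3 had 4, 27 and 39 fragments in the groups and was not tested. Of the summed collagen IV FPKM, Col4a1 and Col4a2 made up 41.5 ± 2.88% in bFGF/EGF, 1.78 ± 0.418% with bFGF/BMP4 and 3.56 ± 1.54% in BMP4, and Col4a5 46.4 ± 3.01%, 88.7 ± 1.81% and 86.0 ± 1.52%. The sum itself was 9.27 ± 1.72, 16.1 ± 1.51 and 26.9 ± 1.14 FPKM.

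The X-linked pair is shown in sequence because its genes start close to each other on opposite strands while Col4a5 was called in both media and Col4a6 in BMP4. The starts lie 1282 bases apart, and the 250 bases before the start of each Ensembl canonical transcript (GENCODE annotation) hold no annotated exon. The Col4a5 window is chrX:140258104-140258353 (plus strand) and the Col4a6 window chrX:140257073-140257322 (minus strand), read from GRCm39 in the direction of transcription. The windows of Lama4 (chr10:38841261-38841510, plus strand), which fell most among the laminins, and of Col23a1 (chr11:51180316-51180565, plus strand), which had the highest log2 fold change of the 47 genes in BMP4, are given for comparison. Capitals mark matches on either strand to any of 4 short motifs. The GC box was searched as GGGCGG. The CCAAT box was searched by the letters of its name. The TATA box was searched as TATAAA. The GC-rich SMAD motif was searched as GGCGCC. No marked matches overlap in the windows shown.
Col4a5: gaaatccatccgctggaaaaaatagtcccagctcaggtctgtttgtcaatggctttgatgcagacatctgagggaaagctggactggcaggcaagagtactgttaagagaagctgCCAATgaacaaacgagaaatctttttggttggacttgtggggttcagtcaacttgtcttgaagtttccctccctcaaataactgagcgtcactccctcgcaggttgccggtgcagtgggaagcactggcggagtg
Col4a6: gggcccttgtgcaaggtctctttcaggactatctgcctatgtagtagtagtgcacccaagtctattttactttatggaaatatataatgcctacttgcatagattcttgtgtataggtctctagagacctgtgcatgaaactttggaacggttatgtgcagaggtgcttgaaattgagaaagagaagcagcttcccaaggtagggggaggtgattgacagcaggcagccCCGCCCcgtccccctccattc
Lama4: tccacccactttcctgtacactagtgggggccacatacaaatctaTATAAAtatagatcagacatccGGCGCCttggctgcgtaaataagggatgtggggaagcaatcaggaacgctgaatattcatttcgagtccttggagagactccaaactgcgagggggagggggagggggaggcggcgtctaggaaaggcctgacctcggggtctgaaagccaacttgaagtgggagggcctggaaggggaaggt
Col23a1: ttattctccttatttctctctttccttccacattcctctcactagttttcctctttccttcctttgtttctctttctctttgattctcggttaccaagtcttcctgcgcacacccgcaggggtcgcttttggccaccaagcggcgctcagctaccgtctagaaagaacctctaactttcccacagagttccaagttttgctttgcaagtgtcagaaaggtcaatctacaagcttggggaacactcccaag
The Col4a5 window held 1 CCAAT match, the Col4a6 window 1 GC box, the Lama4 window 1 TATA box and 1 SMAD motif, and the Col23a1 window none. Over the windows of all 63 genes, taken before the start of the canonical transcript in the same annotation, a GC box was found in 49.2%, a CCAAT box in 31.7%, a TATA box in 12.7% and the SMAD motif in 14.3%. The shares over 21757 protein-coding genes were 36.3%, 36.5%, 11.9% and 9.32%. These are counts of letters in a window, and no site was tested.

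**Figure D4:**
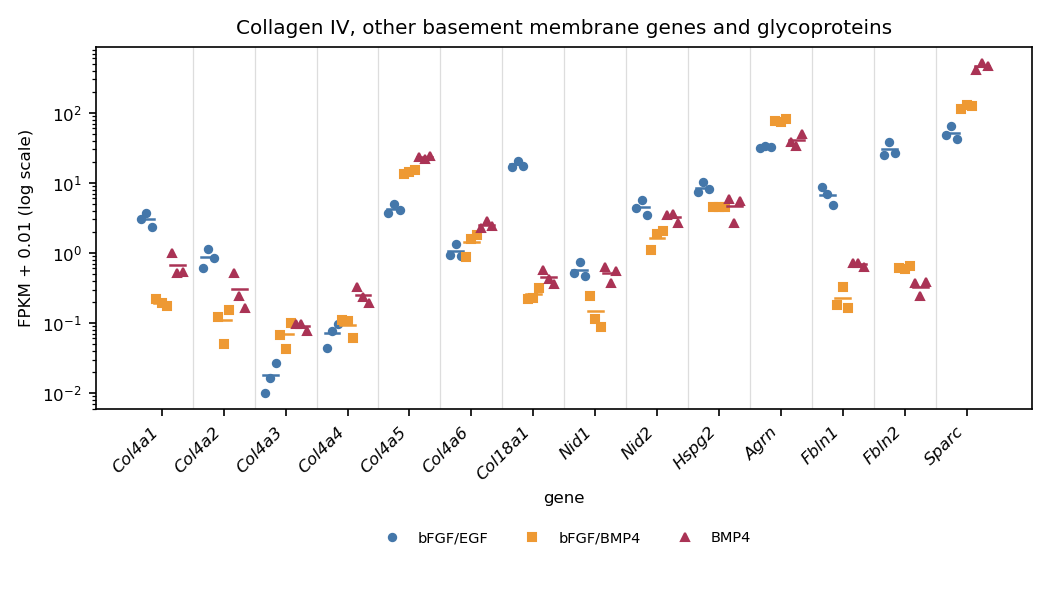
FPKM + 0.01 on a log axis for type IV collagen, Col18a1, the nidogens, Hspg2, Agrn, the fibulins and Sparc, with 1 point for each library and a short line at the group mean. Col18a1 and Fbln2 drop from 17.1 FPKM or more in bFGF/EGF (circles) to at most 0.630 FPKM in the other media (squares and triangles), while Col4a5 and Sparc climb from group to group.

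Of the 4 genes that link or decorate the networks, none was called between BMP4 and bFGF/EGF, while 3 were called between bFGF/BMP4 and bFGF/EGF. Across all genes tested, 36.6% and 30.6% were called in these comparisons. Agrin, a heparan sulfate proteoglycan known for clustering acetylcholine receptors, had the second highest mean of the 63 genes in both media with BMP4. Agrn read 32.0, 33.4 and 32.3 FPKM in bFGF/EGF, 76.2, 74.6 and 81.5 FPKM in bFGF/BMP4 and 38.9, 33.6 and 50.2 FPKM in BMP4. The bFGF/BMP4 libraries were above all others, the means differing 2.38-fold from bFGF/EGF (log2 1.25 ± 0.14, adjusted p = 5.9e-05). The difference of -0.94 ± 0.14 between BMP4 and bFGF/BMP4 passed the p threshold (adjusted p = 0.001) but was under 2-fold, and that between BMP4 and bFGF/EGF was 0.31 ± 0.14 (adjusted p = 0.089). Nid1 and Nid2, the nidogens that bridge laminin and type IV collagen, were lowest in bFGF/BMP4. Nid2 read 4.39, 5.65 and 3.45 FPKM in bFGF/EGF, 1.08, 1.84 and 2.02 FPKM in bFGF/BMP4 and 3.48, 3.60 and 2.67 FPKM in BMP4. Nid2 fell in bFGF/BMP4 (log2 -1.41 ± 0.26, adjusted p = 0.0014), its BMP4 libraries overlapped bFGF/EGF (-0.44 ± 0.26, adjusted p = 0.18), and it shares 1488 bases with Rtraf on the other strand, which was at 56.2, 27.4 and 28.3 FPKM. Nid1 read 0.508, 0.729 and 0.456 FPKM in bFGF/EGF, 0.233, 0.103 and 0.0783 FPKM in bFGF/BMP4 and 0.612, 0.356 and 0.550 FPKM in BMP4. It was lower in bFGF/BMP4 than in bFGF/EGF (-1.51 ± 0.35, adjusted p = 0.0052) and higher in BMP4 than in bFGF/BMP4 (1.38 ± 0.35, adjusted p = 0.019), and the latter call was lost without replicate 2 or 3 of bFGF/BMP4 or replicate 1 or 3 of BMP4. Perlecan was at 7.51, 10.2 and 8.05 FPKM in bFGF/EGF, 4.47, 4.57 and 4.46 with bFGF/BMP4 and 5.80, 2.66 and 5.41 in BMP4. All of its bFGF/EGF libraries were highest, and its log2 differences from bFGF/EGF were -0.90 ± 0.26 (adjusted p = 0.016) and -0.94 ± 0.26 (adjusted p = 0.011), both under 2-fold and thus not called. The fall in BMP4 was called on the TPM scale (log2 -1.02), with limma-voom (-1.05), and without replicate 1 of bFGF/EGF (-1.03), replicate 1 of BMP4 (-1.14) or replicate 3 of BMP4 (-1.09).

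Among the matrix glycoproteins, Sparc had the highest level of the 63 genes, and Fbln1 and Fbln2 showed some of the largest differences. Sparc read 48.6, 63.9 and 41.8 FPKM in bFGF/EGF, 115, 131 and 127 FPKM in bFGF/BMP4 and 407, 507 and 467 FPKM in BMP4, the highest gene of the 63 in every library, with the groups in 3 separate ranges. It rose 2.41-fold in bFGF/BMP4 (log2 1.29 ± 0.17, adjusted p = 0.00014) and 8.95-fold in BMP4 (3.18 ± 0.17, adjusted p = 3.3e-07), and BMP4 was 3.71-fold above bFGF/BMP4 (1.89 ± 0.17, adjusted p = 4.1e-05). Sparc took 19.9 ± 1.76% of the summed FPKM of the 63 genes in bFGF/EGF, 35.9 ± 1.83% with bFGF/BMP4 and 66.2 ± 3.47% in BMP4. The sum of the 63 genes was 257 ± 39.1, 345 ± 6.80 and 694 ± 41.6 FPKM, and without Sparc it was 205 ± 28.4, 221 ± 4.48 and 234 ± 12.3 FPKM. Fbln2, a fibulin that binds laminin and nidogen, fell from 25.3, 37.7 and 27.1 FPKM in bFGF/EGF to 0.606, 0.583 and 0.630 with bFGF/BMP4 and 0.358, 0.233 and 0.371 in BMP4. The means were 49.6-fold lower in bFGF/BMP4 (log2 -5.39 ± 0.21, adjusted p = 7.7e-08) and 93.7-fold lower in BMP4 (-6.16 ± 0.21, adjusted p = 2.4e-08), the lowest log2 fold change of the 47 genes. Fbln1 likewise fell, from 8.59, 7.02 and 4.78 FPKM in bFGF/EGF to 0.171, 0.313 and 0.156 FPKM in bFGF/BMP4 (log2 -4.45 ± 0.28, adjusted p = 1.3e-06) and 0.705, 0.707 and 0.611 FPKM in BMP4 (-3.12 ± 0.28, adjusted p = 8.5e-06), and was higher in BMP4 than in bFGF/BMP4 (1.34 ± 0.28, adjusted p = 0.0065). Fn1, named after its values were seen as the ligand of several integrins, rose from 1.17 ± 0.199 FPKM to 3.02 ± 0.0627 and 3.12 ± 0.405 FPKM (SD, n = 3, adjusted p = 0.00019 and 0.00012).

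Col18a1, whose heparan sulfate-bearing product lies in basement membranes and releases endostatin, was the most abundant collagen gene in bFGF/EGF and had the lowest log2 fold change of the 47 genes in bFGF/BMP4. Col18a1 read 17.1, 20.8 and 17.7 FPKM in bFGF/EGF, 0.213, 0.214 and 0.310 FPKM in bFGF/BMP4 and 0.561, 0.413 and 0.354 FPKM in BMP4. Its means were 75.5-fold lower in bFGF/BMP4 (log2 -5.76 ± 0.22, adjusted p = 7e-08) and 41.8-fold lower in BMP4 (-5.11 ± 0.22, adjusted p = 9e-08), and its fragments numbered 6542, 79 and 152 over the groups. It shares 8825 bases with Slc19a1 on the other strand, which was at 7.44, 4.33 and 3.42 FPKM. Col15a1, the other collagen of this class, was not tested. Col23a1, a transmembrane collagen, moved the other way. Col23a1 read 0.0308, 0.165 and 0.316 FPKM in bFGF/EGF, 1.89, 1.78 and 1.46 FPKM in bFGF/BMP4 and 18.7, 21.0 and 19.5 FPKM in BMP4, an increase at each step with no overlap of groups. Its log2 fold changes were 2.89 ± 0.35 (adjusted p = 9.5e-05) in bFGF/BMP4, 6.35 ± 0.35 (adjusted p = 4.5e-07) in BMP4 and 3.46 ± 0.35 (adjusted p = 9.4e-05) between these media.

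Among the fibrillar collagens 7 of 11 genes were tested, and 2 rose and 1 fell in each medium with BMP4. Over all genes tested, 16.5% rose and 14.1% fell in bFGF/BMP4, and 21.3% and 15.4% in BMP4. Col11a2, a chain of the cartilage collagen XI that nucleates fibrils, rose most. Col11a2 read 0.171, 0.138 and 0.0823 FPKM in bFGF/EGF, 4.08, 3.97 and 3.34 FPKM in bFGF/BMP4 and 16.6, 20.6 and 12.6 FPKM in BMP4. The steps were all called (log2 4.09 ± 0.22, 6.17 ± 0.22 and 2.08 ± 0.22, adjusted p = 5.7e-07, 3.2e-08 and 0.00013). Col11a1, which joins the same trimer, had 3.00, 3.03 and 3.78 FPKM in bFGF/EGF, 5.64, 5.54 and 6.75 with bFGF/BMP4 and 3.11, 3.19 and 3.42 in BMP4. It was highest in all bFGF/BMP4 libraries, at under 2-fold (log2 0.85 ± 0.15, adjusted p = 0.00088), and was not called. Of collagen V, which regulates fibril width, the chains Col5a3 and Col5a1 went in opposite directions. Col5a3 read 2.39, 4.47 and 3.13 FPKM in bFGF/EGF, 16.6, 18.0 and 15.05 FPKM in bFGF/BMP4 and 12.3, 12.2 and 11.4 FPKM in BMP4, a rise of 4.97-fold in bFGF/BMP4 (log2 2.32 ± 0.19, adjusted p = 9.1e-06) and 3.59-fold in BMP4 (1.86 ± 0.19, adjusted p = 2.6e-05). Col5a1 read 5.27, 7.22 and 6.20 FPKM in bFGF/EGF, 2.23, 1.57 and 2.11 FPKM in bFGF/BMP4 and 1.72, 1.34 and 1.01 FPKM in BMP4, which was 3.16-fold (log2 -1.61 ± 0.23, adjusted p = 0.00024) and 4.59-fold lower (-2.14 ± 0.23, adjusted p = 2.7e-05). Every bFGF/EGF library was the lowest for Col5a3 and the highest for Col5a1. Col1a1, Col5a2 and Col27a1, named after their values were seen, were called in no comparison, with group means from 0.105 to 2.52 FPKM. Col5a2, also of collagen V, was above bFGF/EGF in every library of both media with BMP4, at under 2-fold. Its log2 fold changes were 0.68 ± 0.17 (adjusted p = 0.0084) in bFGF/BMP4 and 0.57 ± 0.17 (adjusted p = 0.018) in BMP4.

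The collagens associated with fibrils (FACIT) and their relatives were all tested, and 4 of 9 rose and 1 fell in bFGF/BMP4, while 6 rose and 1 fell in BMP4. The shares over all genes tested were 16.5% higher and 14.1% lower in bFGF/BMP4, and 21.3% and 15.4% in BMP4. Col9a3, of the cartilage and glial collagen IX, had the highest mean of the 9 in both media with BMP4, and Col16a1 in bFGF/EGF (4.06 FPKM). Col9a3 read 1.95, 2.87 and 2.16 FPKM in bFGF/EGF, 8.34, 6.67 and 6.09 FPKM in bFGF/BMP4 and 14.5, 17.4 and 12.6 FPKM in BMP4, in separate ranges, and all 3 differences were called (log2 1.56 ± 0.19, 2.63 ± 0.19 and 1.07 ± 0.19, adjusted p = 9e-05, 2.2e-06 and 0.0025). The last of them fell under 2-fold without replicate 3 of bFGF/BMP4 or replicate 2 of BMP4. The remaining collagens are named after their values were seen. The partners Col9a1 and Col9a2 rose in both media with Col9a3, from means of 0.0231 and 0.149 FPKM to 0.720 and 0.578 FPKM in bFGF/BMP4 and 1.39 and 0.999 FPKM in BMP4 (adjusted p = 5.3e-05, 0.0043, 6.4e-06 and 0.00033). Col12a1, which decorates fibrils in dense connective tissue, was called in opposite directions in bFGF/BMP4 and BMP4. Col12a1 read 1.44, 1.43 and 1.18 FPKM in bFGF/EGF, 0.163, 0.103 and 0.134 FPKM in bFGF/BMP4 and 3.69, 2.51 and 3.56 FPKM in BMP4. All bFGF/BMP4 libraries were lowest and all BMP4 libraries highest, with log2 fold changes of -2.64 ± 0.23 (adjusted p = 1.3e-05), 1.19 ± 0.23 (adjusted p = 0.0016) and 3.83 ± 0.23 (adjusted p = 6e-06). Col19a1, which neighbours Col9a1 on chromosome 1 and is transcribed from the other strand, was the reverse, with 56 fragments in bFGF/EGF, 135 with bFGF/BMP4 and 1 in BMP4. The ratio of bFGF/BMP4 to BMP4 fragments was 135 (95% counting interval 23.8 to 5371), and it was the 1 gene called lower in BMP4 than in bFGF/BMP4 (log2 -2.33 ± 0.35, adjusted p = 0.0011).

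Further collagens rose in BMP4 against both other groups. Col8a2, of the network of endothelial and corneal membranes, had 2 fragments in bFGF/EGF, 11 with bFGF/BMP4 and 870 in BMP4, where it reached 3.59, 4.97 and 3.34 FPKM. The ratio of BMP4 to bFGF/EGF fragments was 435 (95% counting interval 120.1 to 3598, counting error only), and the log2 fold changes were 5.22 ± 0.32 (adjusted p = 8.8e-07) against bFGF/EGF and 4.73 ± 0.32 (adjusted p = 9.5e-06) against bFGF/BMP4. Col22a1, a collagen of tissue junctions, was at 0.0575, 0.137 and 0.0738 FPKM in bFGF/EGF, 0.0947, 0.127 and 0.0813 with bFGF/BMP4 and 0.977, 1.31 and 1.07 in BMP4 (log2 2.70 ± 0.31 and 2.60 ± 0.31 for BMP4 against bFGF/EGF and bFGF/BMP4, adjusted p = 5e-05 and 0.00026). Col6a1 (means of 0.826, 0.455 and 1.99 FPKM) and Col14a1 (0.0255, 0.0561 and 0.297 FPKM) were also called higher in BMP4 than in both other groups. For Col6a1 the partner chains Col6a2 and Col6a3, with which it forms the collagen VI trimer, were below the level tested. Col26a1 fell in both media (means of 1.97, 0.0883 and 0.406 FPKM) and was higher in BMP4 than in bFGF/BMP4 (adjusted p = 0.018), Col28a1 fell in BMP4 (means of 0.240, 0.157 and 0.0376 FPKM), and Col7a1, the anchoring fibril collagen, rose in BMP4 (means of 0.106, 0.260 and 0.360 FPKM). Col16a1, Col20a1 and Col25a1 were called in no comparison.

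**Figure D5:**
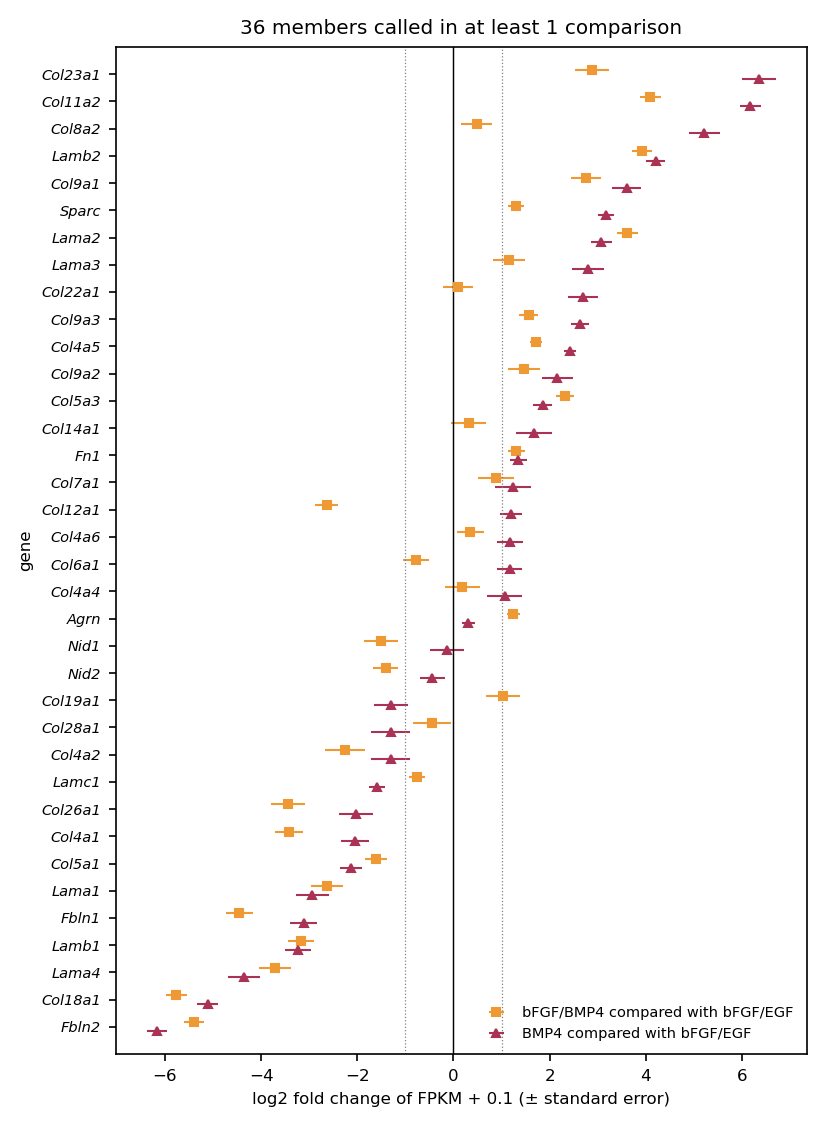
Log2 fold change of FPKM + 0.1 with its standard error for 36 of the 37 genes called in at least 1 comparison, sorted by the change in BMP4. Squares are bFGF/BMP4 and triangles BMP4, each compared with the same bFGF/EGF libraries, and dotted lines mark 2-fold. Col12a1 and Col19a1 are the only genes called on opposite sides of 0 in these comparisons.

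In order of level, Sparc, Lamc1, Agrn, Fbln2 and Col18a1 were the 5 highest genes in bFGF/EGF, and Sparc, Agrn, Lamb2, Lamc1 and Col5a3 in bFGF/BMP4. In BMP4 they were Sparc, Agrn, Lamb2, Col4a5 and Col23a1. The ranges over libraries of Sparc and Lamc1 and of Agrn and Fbln2 in bFGF/EGF, and of Agrn and Lamb2 in BMP4, overlapped. So did those of Col5a3 and Col4a5 in bFGF/BMP4, and of Col23a1 and Col11a2, the next gene, in BMP4. Sparc was above Lamc1 in each bFGF/EGF library, whereas Agrn and Fbln2, and Agrn and Lamb2, changed order between libraries. Col4a5 was above Col5a3 in bFGF/BMP4 replicate 3 (15.3 and 15.05 FPKM), while Col23a1 was above Col11a2 in each BMP4 library. The summed collagen level was 55.1 ± 7.80 FPKM in bFGF/EGF, 62.7 ± 0.313 with bFGF/BMP4 and 116 ± 7.87 in BMP4. By group mean it was led by Col18a1, by Col5a3 and by Col4a5, respectively.

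Of 30 tested genes for enzymes and chaperones that make and crosslink collagen, 8 rose and 6 fell in bFGF/BMP4 and 9 rose and 5 fell in BMP4, and 6 were higher and 5 lower in BMP4 than in bFGF/BMP4. Of all genes tested, 30.6%, 36.6% and 13.5% were called in these comparisons. The median log2 fold changes of the list were 0.17, 0.16 and -0.23. Among those with a mean of at least 1 FPKM, the largest changes in BMP4 were in P4ha3, a prolyl hydroxylase subunit, and Adamts14, a procollagen peptidase. P4ha3 had 2, 36 and 685 fragments in bFGF/EGF, bFGF/BMP4 and BMP4 and reached 4.73, 4.59 and 4.08 FPKM in BMP4 (log2 5.35 ± 0.25 against bFGF/EGF, adjusted p = 1.5e-07). Adamts14 fell from 8.32, 13.3 and 13.7 FPKM in bFGF/EGF to 1.497, 3.84 and 3.27 FPKM in bFGF/BMP4 and 0.557, 0.404 and 0.793 FPKM in BMP4 (log2 -4.12 ± 0.36 in BMP4, adjusted p = 7.2e-06). Serpinh1, the collagen chaperone HSP47, chosen after its values were seen, was called in no comparison at means of 90.1, 73.6 and 74.3 FPKM. Pxdn, the peroxidase that crosslinks type IV collagen, also chosen afterwards and a member of the next list too, was at 8.22, 8.58 and 8.95 FPKM in bFGF/EGF, 0.871, 0.763 and 0.824 with bFGF/BMP4 and 7.55, 4.22 and 5.37 in BMP4. Its fall in bFGF/BMP4 (log2 -3.24 ± 0.20, adjusted p = 1.1e-06) was called and its difference in BMP4 (-0.62 ± 0.20, adjusted p = 0.023) was under 2-fold.

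Of 28 other basement membrane and microfibril genes, 10 rose and 11 fell in bFGF/BMP4 and 10 rose and 10 fell in BMP4 (30.6% and 36.6% of all genes were called), and 9 were higher and 5 lower in BMP4 than in bFGF/BMP4 (13.5% of all genes). The medians were -0.54, 0.02 and 0.48. Fbn2, a fibrillin, fell from 19.5, 17.8 and 32.5 FPKM to 0.528, 0.691 and 0.494 FPKM in bFGF/BMP4 and 0.168, 0.0934 and 0.206 FPKM in BMP4 (log2 -5.08 ± 0.28 and -6.48 ± 0.28, adjusted p = 5.8e-07 and 1e-07). Mfap5, a small microfibril protein, rose from 1 fragment in bFGF/EGF to 57 and 670 (log2 5.15 ± 0.36 in BMP4, adjusted p = 1.8e-06). Of 19 receptors for laminin and collagen, 8 rose and 3 fell in each medium with BMP4, beside 16.5% higher and 14.1% lower of all genes in bFGF/BMP4 and 21.3% and 15.4% in BMP4. In BMP4 against bFGF/BMP4, 7 were higher and 3 lower (8.41% and 5.14% of all genes), with medians over the 3 comparisons of 0.59, 0.70 and 0.16. Itga1, a collagen and laminin integrin chain, rose from 0.193, 0.0918 and 0.256 FPKM in bFGF/EGF to 2.44, 3.39 and 3.20 FPKM in bFGF/BMP4 and 3.71, 2.85 and 3.51 FPKM in BMP4 (log2 3.51 ± 0.26 and 3.66 ± 0.26, adjusted p = 4.3e-06 and 2.2e-06). Itga2, a chain of a collagen receptor of platelets, was at 0.437, 0.355 and 0.270 FPKM in bFGF/EGF, 0.244, 1.13 and 0.572 FPKM in bFGF/BMP4 and 3.90, 3.19 and 3.75 FPKM in BMP4. It was higher in BMP4 than in either other group (log2 3.04 ± 0.40 and 2.49 ± 0.40, adjusted p = 0.00013 and 0.0016). The shared integrin chain Itgb1 and the laminin-binding Itga6, chosen after their values were seen, were called in no comparison at means of 214, 230.2 and 171 and of 39.4, 33.6 and 28.1 FPKM.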

How the data were processed

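RNA of 9 libraries (3 groups of 3) had been sequenced as read pairs. According to the methods and processing notes, the authors cleaned reads with fastp 0.19.7, aligned them with HISAT2 2.0.5 to mm39 (GRCm39) and counted with featureCounts 1.5.0-p3, and they deposited 1 table of FPKM values. Strandedness and annotation release are not given in the sources used here. The FPKM values are whole multiples of a gene and a library constant, and whole fragments (within 0.02) were recovered for 30860 of 30860 genes above 0, with 15892854 to 17419822 fragments per library. The smallest whole numbers that fit were taken, so a gene above 0 in only 1 library always counts as 1 fragment. Fragment numbers and totals can therefore be too low, and the full recovery does not test them.

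Genes with a mean of at least 0.1 FPKM (20207) were tested with limma 3.58.1 in R 4.3.3, with a trend on log2(FPKM + 0.1), all libraries in 1 fit and Benjamini-Hochberg adjustment over all genes. Calls needed an adjusted p of at most 0.05 and a fold of at least 2. Errors of log2 fold changes are standard errors, and those of levels are SD over 3 libraries. A fold of means is the ratio of mean FPKM. The fit was tested on simulated data. Python 3.11.15 with pandas 2.3.3, numpy 2.4.6, scipy 1.17.1 and matplotlib 3.10.9 made tables, counting intervals and figures. Counting intervals cover counting error only.

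Values are given for type IV collagen, laminins, nidogens, Hspg2, Agrn, every other gene of the 63 with a group mean of at least 5 FPKM, and from each further list the 2 genes with the largest change in BMP4 against bFGF/EGF among those called with a mean of at least 1 FPKM. Genes named beyond these (other collagens, Fn1, marker, enzyme and integrin genes) were chosen after their values were seen, apart from genes named because they overlap one of the 63. Some genes counted in the totals, of the 63 and of the further lists, are not reported here by name. The genes, lists and tests were chosen with earlier results of these data known. The labels do not say whether replicate numbers pair the libraries, and the main fit used no pairing. Alternatives were a pseudocount of 1, a mean of at least 1 FPKM or no filter, the TPM scale, median-ratio scaling, only the groups compared, limma-voom on recovered fragments, a replicate block, no fold threshold, and leaving out each library. Positions, overlaps and sequences are from GRCm39 and GENCODE release M39. Shared bases are between whole gene spans, introns included, except for the transcript ends of Col4a1 and Col4a2. Of 35 collagen biosynthesis genes, 34 were found by symbol.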

Additional observations from a re-analysis of the deposited data

Results flagged for a closer look

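Col12a1 and Col19a1 were called in opposite directions in the media with BMP4 relative to bFGF/EGF, and the direct comparison of BMP4 with bFGF/BMP4 passed the test for both. Col12a1 differed by a log2 fold change of 3.83 (mean FPKM 0.133 in bFGF/BMP4 and 3.25 in BMP4, higher in 3 of 3 BMP4 libraries). Col19a1 differed by a log2 fold change of -2.33 (mean FPKM 0.423 and 0.00299, lower in 3 of 3 BMP4 libraries) and rested on 135 and 1 fragments. This Col19a1 call was lost with a pseudocount of 1, where 0 of the 47 genes were called lower in BMP4 than in bFGF/BMP4. Against bFGF/EGF, Col19a1 rose in bFGF/BMP4 (log2 1.03 ± 0.35, adjusted p = 0.035) and fell in BMP4 (-1.30 ± 0.35, adjusted p = 0.011), at 0.128, 0.110 and 0.238 FPKM in bFGF/EGF, 0.479, 0.464 and 0.326 FPKM with bFGF/BMP4 and 0, 0.00896 and 0 FPKM in BMP4.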

How the results depend on the processing

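With a pseudocount of 1, 9 genes rose and 10 fell in bFGF/BMP4 and 10 rose and 9 fell in BMP4 against bFGF/EGF. In this setting 6 were higher and 0 lower in BMP4 than in bFGF/BMP4. Of all 20207 genes tested, 1723 rose and 1821 fell in bFGF/BMP4 and 2326 rose and 2038 fell in BMP4. Between these media 890 of all genes were higher and 559 lower in BMP4. The main fit called 3327 higher and 2847 lower, 4297 and 3103, and 1699 and 1039 of all genes in these comparisons. With a mean of at least 1 FPKM, which left 27 genes to test, 10 rose and 8 fell in bFGF/BMP4 and 13 rose and 7 fell in BMP4. At this level 9 were higher and 0 lower in BMP4 than in bFGF/BMP4. Of all 12947 genes then tested, 2259 rose and 2128 fell in bFGF/BMP4 and 2649 rose and 2340 fell in BMP4. Between these media 1012 of them were higher and 788 lower in BMP4. The count lower in BMP4 than in bFGF/BMP4 was 2 on the TPM scale, 2 with limma-voom and 5 with no fold threshold. Leaving out a library gave 12 to 15 higher and 13 to 14 lower in bFGF/BMP4, 18 to 20 higher and 11 to 14 lower in BMP4, and 13 to 15 higher and 1 to 2 lower in BMP4 than in bFGF/BMP4, where 2 was reached without BMP4 replicate 3.

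Of 52 calls of the genes named by the rule, 36 were kept under every alternative run for them, 16 were lost under at least 1 and 0 reversed. All 16 were lost with a pseudocount of 1, among them Col4a2, Lama1, Lama3 and Nid1 in bFGF/BMP4, Col4a2, Col4a4, Col4a6, Lama1 and Lama3 in BMP4, and Col4a1, Col9a3, Lama3, Nid1 and Fbln1 between these media. Of 35 differences that were not called, 9 were called under at least 1 alternative that kept the 2-fold threshold: Hspg2 and Lamb3 in bFGF/BMP4, Hspg2 in BMP4, and Col4a4, Col4a6, Lama4, Lamb3, Agrn and Nid2 between these media. With no fold threshold, Col11a1 and Lamc1 in bFGF/BMP4 and Col4a5, Col11a1, Lamc1 and Fbln2 between these media also passed. Same-numbered libraries correlated at -0.08 to 0.12 in their deviations from the group means, with 1 of 9 pairs over 0.1. Libraries of other numbers correlated at -0.15 to 0.08, with 0 of 18 pairs over 0.1. The labels do not say whether replicate numbers pair the libraries, and weak correlations cannot decide it. With a replicate block 13 genes rose and 14 fell in bFGF/BMP4, and the call of Col4a4 in BMP4 was lost. Values that changed sign were all uncalled. Without a library, Col11a1 in BMP4 against bFGF/EGF ranged from -0.0647 to 0.0989, with 0.0989 without replicate 3 of bFGF/EGF, 0.0207 without replicate 1 of BMP4 and 0.0028 without replicate 2 of BMP4. In the same comparison Lamb3 ranged from -0.1286 (without replicate 2 of bFGF/EGF) to 0.2705, and Nid1 from -0.2662 to 0.0558, with 0.0331 without that library and 0.0558 without replicate 2 of BMP4. Between BMP4 and bFGF/BMP4, Lamb1 ranged from -0.2398 to 0.0954 (without replicate 3 of bFGF/BMP4) and Hspg2 from -0.2377 to 0.3097 (without replicate 2 of BMP4). The cause was not tested. Genes under about 0.1 FPKM in a group rest on few fragments there. This limits what can be said of Lama1, Lama2, Lama3, Lama4, Col4a2, Col4a4 and Col8a2, among others. The same holds for Col9a1, Col14a1, Col19a1, Col22a1, Col26a1 and Col28a1. In bFGF/EGF, Col9a1 had 6 fragments and Col14a1 had 9.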
